A study of Mus musculus with 8 samples.

Results

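The genes described here are 10 members of the BCL2 family, the group of proteins that decides whether the outer mitochondrial membrane of a cell stays intact or is opened during apoptosis. They were taken by symbol from a table of 52778 rows, keeping rows on the primary chromosomes. They are chosen family members that were not placed in a separate group of p53 apoptosis targets. The choice leaves out other family genes and does not mean that p53 has no effect on these 10. They comprise 4 survival genes (Bcl2, Bcl2l1, Bcl2l2 and Mcl1), 2 effector genes (Bak1 and Bok), 3 genes of the BH3-only kind (Bid, Bad and Bcl2l11) and Bnip3. All 10 were found, and all 10 passed the filter on low values, a mean of at least 1 TPM over all libraries, that 15541 rows of the table passed. TPM is a level per transcript length with the same total in every library, so levels of different genes can be set beside each other.

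RNA was sequenced from ventricular heart tissue of mouse embryos at embryonic day 11.5. In the conditional knockout group (cKO, 4 libraries) the embryos were Rps19bp1 fl/fl and carried Xmlc2-Cre, so that the recombinase acts in cardiomyocytes and the other cells of the ventricle keep the gene. The control group holds 4 libraries, whose alleles and Cre status the labels do not give. A genotype field reads C57BL/6 WT for all 8 libraries, against their titles, and an extraction text speaks of cortical neurons. The labels also conflict on the library type, rRNA depletion against poly(A). Each library is described as a biological replicate, and nothing in the labels says whether embryos were pooled.

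Marker genes were therefore looked at first. The 12 cardiomyocyte markers summed to between 39801 and 44705 TPM in the 8 libraries, and the 12 neuronal markers to between 6.81 and 16.9 TPM, with Neurod1 and Neurod6 listed at 0 in every library. Rps19bp1, the targeted gene, stood at 15.2, 11.8, 13.7 and 19.2 TPM in cKO libraries 1 to 4 and at 40.9, 44.2, 34.7 and 40.05 TPM in control libraries 1 to 4. The groups did not overlap in Rps19bp1, as their labels imply. Mitochondrially encoded transcripts took 13.2% to 16.2% of the cKO libraries and 11.4% to 12.2% of the control libraries, with cKO library 3 the highest.

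In the BCL2 family, survival proteins hold the effector proteins BAX and BAK in check at the mitochondrial surface. BH3-only proteins carry death signals by binding survival proteins or by activating effectors. Effectors that are set free form pores, cytochrome c leaves the mitochondrion, and the adaptor Apaf1 then activates caspases. In the heart, Mcl1 and Bcl2l1 are known as survival genes of muscle cells, Bcl2l1 also of red cell precursors, and Bnip3 is best known as a gene of the response to low oxygen that marks mitochondria for removal.

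The promoter sequence just before the start of a gene is shown for the 1 member whose level passed the test, Bok, and for the most abundant member, Bnip3. Both are the 250 bases before the annotated start, written 5′ to 3′ in the direction of the gene, from RefSeq's annotation of GRCm38.p6. The Bok window (chr1:93685325-93685574, plus strand) has in capitals its match to the GC box GGGCGG, here on the opposite strand. The Bnip3 window (chr7:138909507-138909756, minus strand) has in capitals its match to the E-box CACGTG. This E-box contains ACGTG, a form of the hypoxia response core, on either strand.
Bok: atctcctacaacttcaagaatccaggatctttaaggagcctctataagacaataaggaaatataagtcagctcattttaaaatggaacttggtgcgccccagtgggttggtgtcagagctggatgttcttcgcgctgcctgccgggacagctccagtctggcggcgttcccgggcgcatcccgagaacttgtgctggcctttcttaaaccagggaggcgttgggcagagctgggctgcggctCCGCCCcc
Bnip3: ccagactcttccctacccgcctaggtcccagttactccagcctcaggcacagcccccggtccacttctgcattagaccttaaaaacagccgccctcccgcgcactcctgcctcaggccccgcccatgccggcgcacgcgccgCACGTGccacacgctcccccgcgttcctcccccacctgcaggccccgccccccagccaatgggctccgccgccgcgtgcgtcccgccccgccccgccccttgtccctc

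Windows of the same length were searched on both strands for all 10 members, which have 14 annotated starts between them, and for 32841 starts of the whole RefSeq table. A GC box lay before at least 1 start of 8 members (9 of 14 windows) and in 32.7% of all windows. Bak1 and Bcl2l1 were the members without it, but all 250 bases of the Bak1 window, and of 2 of the Bcl2l1 windows, lie in exons that GENCODE gives to the same gene, so these windows may not be the promoter in use. The E-box was found in the Bnip3 window alone among the members and in 6.02% of all windows. The letters ACGTG, which every E-box contains, were likewise in that 1 member window against 16.6% of all. No other form of the hypoxia response core was searched. The CCAAT box (CCAAT) was in 4 of 14 member windows, belonging to Bad, Bcl2l11 and Bnip3, against 33.9% of all. In the Bad window with this match, 197 of 250 bases likewise lie in exons that GENCODE gives to Bad. No member window held TATAAA (12.4% of all), TTTGGCGC or TTTCCCGC, forms of the E2F site (1.3%), the CRE letters TGACGTCA (1.55%) or the p53 half-site (7.13%). GC content ran from 47.6% before a start of Bcl2l1 to 74.8% before Bcl2, with a median of 52.4% over all windows. These matches describe letters in a window and nothing about binding.

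The members differed 18.8-fold in mean level over all libraries, from Bid to Bnip3. In control tissue Bnip3 was the highest at 168 TPM ± 30.1 (SD, n = 4), followed by Mcl1 at 118 TPM ± 6.91 and Bak1 at 88.7 TPM ± 4.57. These took 31.4%, 22.2% and 16.6% of the summed level of the 10 genes. Bok (39.7 TPM ± 2.84), Bcl2l1 (33.7 TPM ± 2.09) and Bad (33.1 TPM ± 4.71) formed a middle group, and Bcl2l2 (19.6 TPM ± 2.72) and Bcl2l11 (14.96 TPM ± 1.4) stood lower. Bcl2, the founding gene of the family, was among the lowest at 8.93 TPM ± 0.813, beside Bid at 8.68 TPM ± 0.626 (SD, n = 4 for all). Among neighbours in the control order, the ranges of Bcl2l1 and Bad overlapped, as did those of Bcl2 and Bid, and the other 7 neighbouring pairs did not overlap.

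In cKO tissue the order was the same except for Bok, which stood behind Bcl2l1 and Bad. Its range there, 22.9 to 32.1 TPM, lay below all 4 cKO values of Bcl2l1 (35.5 to 40.2 TPM), while in control it lay above all 4 of Bcl2l1. The ranges of Bok and Bad overlapped in cKO.

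**Figure D1:**
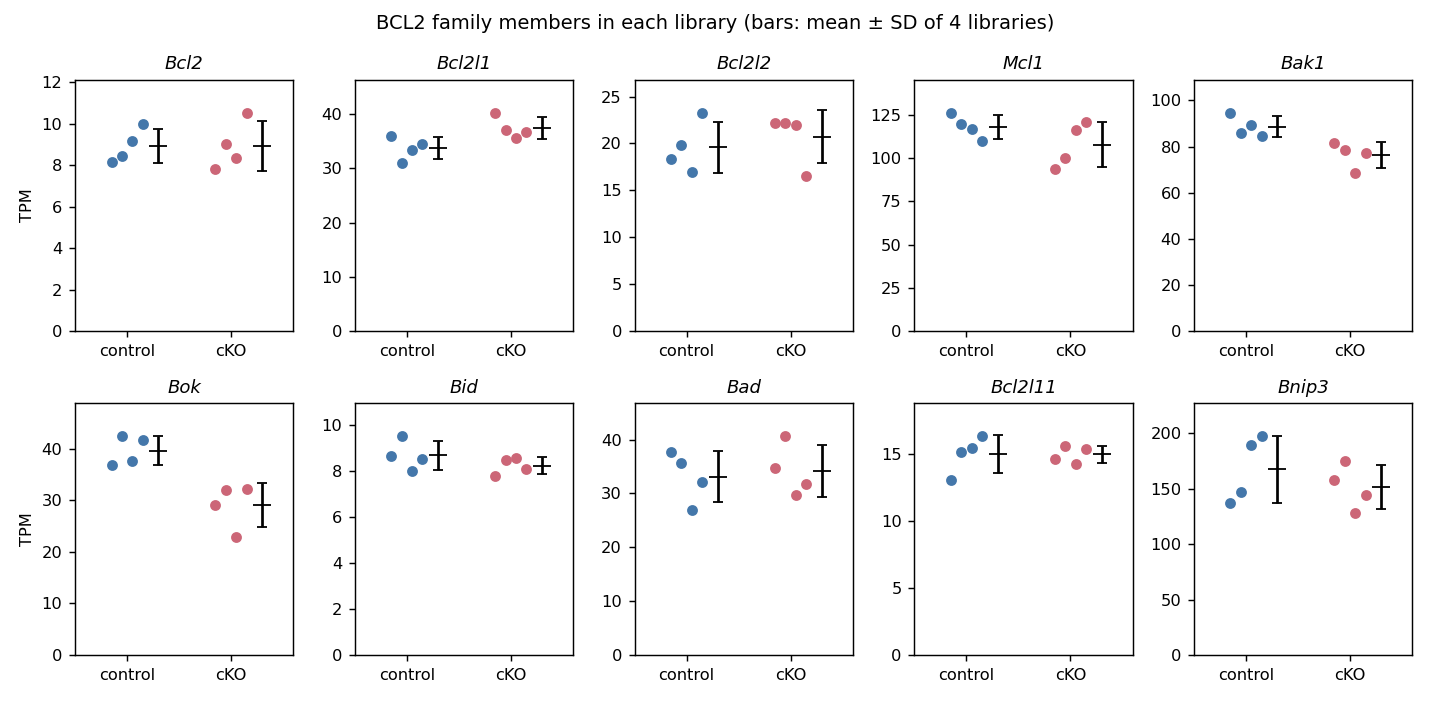
Level in TPM (vertical axes, each from 0) of the 10 genes in each of 4 control (blue) and 4 cKO (red) libraries, in replicate order from left to right, with the mean and SD as a black bar beside each group. The groups are apart in Bak1 and Bok and overlap in the other 8 genes.

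Of the 10 genes, 1 passed the test between the groups and it was lower in cKO (Bok). The test was limma on log2(TPM + 1) across all 15541 rows, called at a Benjamini-Hochberg adjusted p under 0.05, and 6.4% of all tested rows passed it, 2.16% higher and 4.23% lower in cKO. By an unadjusted p under 0.05, 3 of 10 members passed (Bok, Bak1 and Bcl2l1) against 23.7% of all rows. The groups did not overlap in 2 of 10 members, both lower in cKO, where 15.6% of all rows had groups that did not overlap, 5.33% with cKO the higher and 10.3% with cKO the lower. The median log2 change of the members was -0.04, and that of all tested rows -0.02. The members as a list thus stood close to the background of the whole table. Ventricular tissue is a mixture, so fewer cells of a type and less RNA per cell cannot be told apart in any of these values.

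The effector genes were the members that differed most. Bok (chr1:93685575-93695770, plus strand, GRCm38), which encodes a pore-forming relative of BAX and BAK that is found largely at the endoplasmic reticulum, stood at 36.8, 42.4, 37.6 and 41.7 TPM in control libraries 1 to 4. In cKO libraries 1 to 4 it stood at 29.1, 32.01, 22.9 and 32.1 TPM. All 4 cKO values lay below all 4 control values, and cKO library 3 was the lowest. Bok fell to 73.3% of the control mean, a log2 change of -0.45 (SE 0.102, 95% interval -0.67 to -0.22, limma adjusted p = 0.0331, exact two-sided permutation p = 0.0286, the smallest that 4 against 4 libraries can give). The call was narrow: it was lost without cKO library 1 and without each of the 4 control libraries in turn (limma adjusted p 0.05995 to 0.0841), while the change itself stayed between -0.50 and -0.34 in all leave-one-out fits. With a score of erythroid markers as a covariate the change was -0.37 (limma adjusted p = 0.0835).

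Bak1 (chr17:27019812-27028627, minus strand), the gene of the effector BAK that sits in the outer mitochondrial membrane, moved in the same direction by a smaller amount and did not pass. It stood at 94.8, 85.97, 89.5 and 84.5 TPM in control libraries 1 to 4 and at 81.7, 78.7, 68.6 and 77.1 TPM in cKO libraries 1 to 4. The groups did not overlap, with a gap from 81.7 to 84.5 TPM between them. The log2 change was -0.21 (SE 0.0619, 95% interval -0.35 to -0.07, limma adjusted p = 0.0729, exact two-sided permutation p = 0.0286). The permutation p, here as for Bok, follows from the lack of overlap, which 15.6% of all rows also had, and is not adjusted. It adds nothing to the lack of overlap. The whole Bak1 row lies within the row of Ggnbp1 on the opposite strand, so reads of the pair cannot be told apart if strand was not used in counting. Ggnbp1 held 14.9 TPM in control and 16.8 TPM in cKO, with a log2 change of 0.15 (limma adjusted p = 0.251), the opposite direction.

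**Figure D2:**
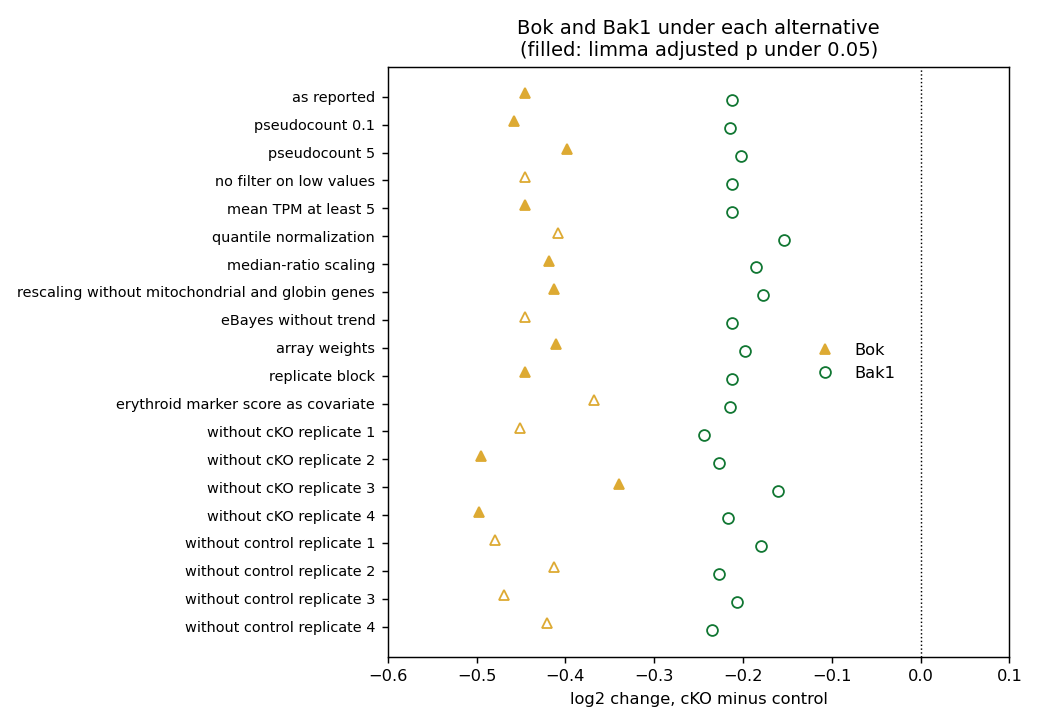
Log2 change, cKO minus control (horizontal axis), of Bok (triangles) and Bak1 (circles) as reported and under each of 19 alternative settings (vertical axis). Every value lies below 0, Bok passes the test in 10 of the 19 alternatives (filled) and Bak1 in none of them (open).

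Together Bak1 and Bok summed to 126 to 132 TPM in control libraries and to 91.5 to 110.8 TPM in cKO libraries. Library 3 of cKO was the lowest at 91.5 TPM, and the other 3 lay between 109 and 110.8 TPM. All cKO sums lay under every control sum, which follows from the same being true of Bak1 and of Bok alone. The mean share of Bak1 in this sum was 69.1% ± 2.55 in control and 72.6% ± 2.09 in cKO (SD, n = 4), and the groups overlapped in that share. Markers of other cell types moved with the groups as well. The sum of 8 mesenchymal markers ran from 551 to 695 TPM in control and from 795 to 999 TPM in cKO (8 of 8 higher, 4 called), that of 6 epicardial markers from 269 to 302 TPM and from 327 to 418 TPM (6 of 6 higher, 4 called), and that of 8 endothelial markers from 728 to 775 TPM and from 778 to 882 TPM (7 of 8 higher, 0 called), with no marker of these lists at 0 in all libraries. The sum of 12 cardiomyocyte markers ran from 41185 to 44705 TPM in control and from 39801 to 43005 TPM in cKO. Of these markers, 2 of 12 were higher in cKO and 1 was called, lower (median log2 change -0.06). Among all 15541 tested rows 6863 were higher in cKO, and 2.16% were called higher and 4.23% lower. The part of these cell types in the change of Bok and Bak1 was not tested.

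The survival genes did not pass the test, and their estimates did not share a direction. Bcl2l1 (chr2:152758732-152833803, minus strand), which encodes BCL-XL, stood at 36.01, 31.03, 33.3 and 34.4 TPM in control libraries 1 to 4 and at 40.2, 37.004, 35.5 and 36.6 TPM in cKO libraries 1 to 4. Control library 1 reached into the cKO range, and the other 3 control libraries lay below all cKO libraries. Its log2 change was 0.14 (SE 0.0597, 95% interval 0.01 to 0.28, limma adjusted p = 0.177, exact two-sided permutation p = 0.0571). Bcl2l1 overlaps Cox4i2 on the opposite strand by 6308 bases, and Cox4i2 was at 15.5 TPM in control and 18.4 TPM in cKO. The sum of 12 erythroid markers ran from 1982 to 7197 TPM in control and from 1764 to 3776 TPM in cKO. Control library 4 held the 7197 TPM, and the next control library, 2, held 3283 TPM. Of the 12, 0 were higher in cKO (median log2 change -0.39) and 0 were called, with none at 0 in all libraries. Of the 15541 tested rows, 6863 were higher in cKO and 6.4% were called. With their score as a covariate the change of Bcl2l1 was 0.16 (limma adjusted p = 0.218).

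Mcl1 (chr3:95656944-95663179, plus strand), the most abundant survival gene and one whose protein turns over quickly, had an estimated log2 change of -0.14 (95% interval -0.32 to 0.05, limma adjusted p = 0.357). Its control libraries 1 to 4 held 126, 120, 117 and 109.7 TPM and its cKO libraries 1 to 4 held 93.9, 100.2, 116 and 121 TPM. Libraries 1 and 2 of cKO lay below every control library, and libraries 3 and 4 lay within the control range. The Mcl1 estimate was -0.07 without cKO library 1, -0.19 without cKO library 4 and -0.20 with the erythroid score, the mean log2(TPM + 1) of the erythroid markers, as a covariate (limma adjusted p = 0.195). Mcl1 and Bcl2l1 thus had estimates of opposite sign, and the level of Mcl1 was 3.52 ± 0.273 times that of Bcl2l1 in control and 2.91 ± 0.472 times in cKO (SD, n = 4), with overlapping groups.

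Bcl2 (chr1:106538176-106714290, minus strand), the survival gene first found at a lymphoma breakpoint, had a mean of 8.93 TPM in each group, with a range of 8.14 to 9.96 TPM in control and 7.81 to 10.5 TPM in cKO. Its log2 change was -0.0048 with a 95% interval from -0.22 to 0.21 (limma adjusted p = 0.983), and the sign turned with the scaling (0.020 after median-ratio scaling). Bcl2l2 (chr14:54883366-54890858, plus strand), which encodes BCL-W, ranged from 16.96 to 23.3 TPM in control and from 16.5 to 22.2 TPM in cKO, with a log2 change of 0.07 (95% interval -0.18 to 0.33, limma adjusted p = 0.742). In cKO, 3 libraries lay between 21.9 and 22.2 TPM and library 4 stood apart at 16.5 TPM. Without it the log2 change of Bcl2l2 was 0.17, and without control library 4 or control library 3 it was 0.16 or 0.01. The 4 survival genes summed to 180 TPM ± 5.77 in control and 175 TPM ± 10.1 in cKO (SD, n = 4), with overlapping groups. Within that sum the share of Bcl2l1 was 18.7% ± 0.912 in control and 21.4% ± 2.32 in cKO, where the highest control library was at 19.4% and the lowest cKO library at 19.5%, and the share of Mcl1 was 65.5% ± 2.44 and 61.5% ± 3.86 (SD, n = 4), with overlapping groups.

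The BH3-only members gave no call. Bcl2l11 (chr2:128126038-128162547, plus strand), which encodes BIM, a strong activator of BAX and BAK, ranged from 12.998 to 16.3 TPM in control and from 14.2 to 15.6 TPM in cKO, with a log2 change of 0.0015 (95% interval -0.16 to 0.16, limma adjusted p = 0.993). Bid (chr6:120893119-120917062, minus strand), which links death receptors to mitochondria once caspase-8 cuts its protein, ranged from 8.01 to 9.52 TPM and from 7.77 to 8.59 TPM, with a log2 change of -0.07 (95% interval -0.22 to 0.09, limma adjusted p = 0.618). Another Bid row on an alternate scaffold was listed at 0 in all 8 libraries and is no member. Bad (chr19:6941861-6951905, plus strand), whose protein is held by 14-3-3 proteins when growth factor signals phosphorylate it, ranged from 27.004 to 37.8 TPM and from 29.7 to 40.6 TPM, with a log2 change of 0.04 (95% interval -0.21 to 0.30, limma adjusted p = 0.857). Bad overlaps Gpr137 on the opposite strand by 590 bases. The lower bounds of Bad and Bid reached the change measured in Bak1, -0.21, and that of Bcl2l11 did not.

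Bnip3 (chr7:138890836-138909506, minus strand) stood at 137, 147, 189 and 197 TPM in control libraries 1 to 4 and at 158, 175, 128 and 145 TPM in cKO libraries 1 to 4. Control libraries 3 and 4 were the highest, and control libraries 1 and 2 lay within the cKO range. The log2 change was -0.14 with the widest interval of the 10 genes (-0.43 to 0.15, limma adjusted p = 0.565). Control library 4 also had the highest sum of erythroid markers, 7197 TPM. With the erythroid score as a covariate the change of Bnip3 was -0.0011 (limma adjusted p = 0.998), and the estimate moved both ways as single libraries were left out. It was -0.05 without control library 4, -0.06 without cKO library 3 and -0.07 without control library 3, against -0.21 without cKO library 2 and -0.23 without control library 1.

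**Figure D3:**
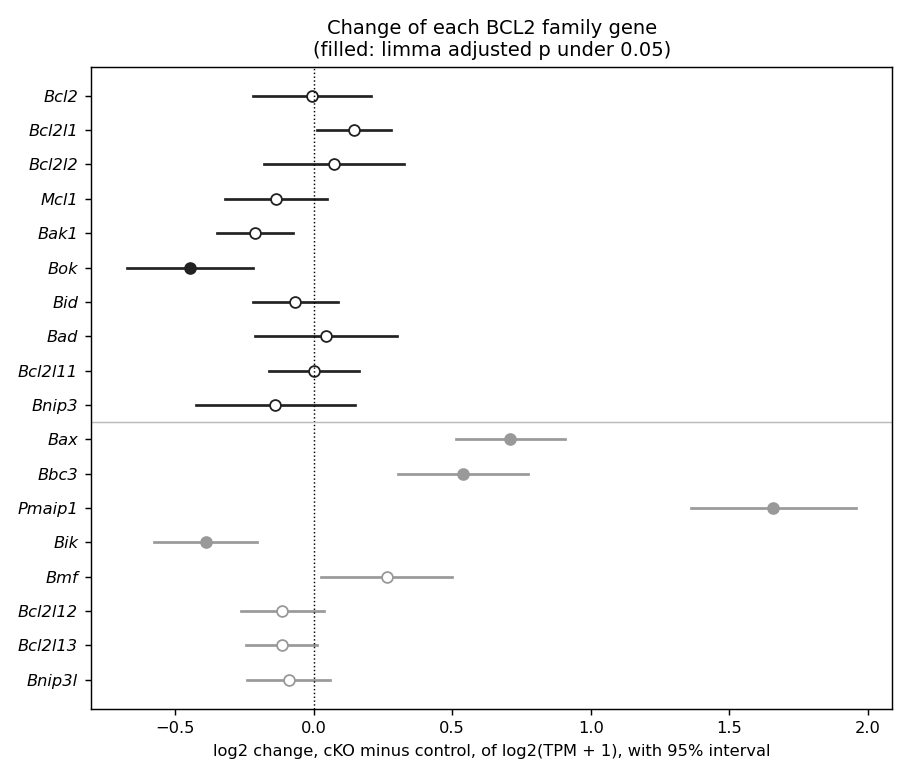
Log2 change, cKO minus control, on the log2(TPM + 1) scale (horizontal axis) with its 95% interval for the 10 members (black, above the line) and 8 other family genes (grey). Filled points passed limma's test: Bok among the members at -0.45, and Bax, Bbc3, Pmaip1 and Bik among the others.

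Bax, Bbc3 and Pmaip1, family genes that p53 is known to switch on, were set beside the members for comparison. All 3 passed and were higher in cKO, and since the series was known to hold this rise when they were listed, they are no independent evidence of it. Bax (chr7:45461695-45466903, minus strand), the effector whose protein moves from the cytosol to mitochondria, stood at 78.96, 86.7, 93.1 and 104 TPM in control libraries 1 to 4 and at 159, 148, 156 and 130.1 TPM in cKO libraries 1 to 4. The groups were far apart, and Bax rose by 0.71 on the log2 scale (SE 0.0884, limma adjusted p = 0.00281). Bbc3, which encodes the BH3-only protein PUMA, rose by 0.54 (limma adjusted p = 0.0203), a call lost without control libraries 1, 2 or 3 (limma adjusted p 0.0524 to 0.0602) or with no filter on low values (limma adjusted p = 0.0767). Pmaip1, which encodes NOXA, a BH3-only protein that binds MCL1, rose by 1.66 (limma adjusted p = 0.000188) from 1.11 TPM ± 0.347 to 5.62 TPM ± 0.726 (SD, n = 4). The size of that change depended on the pseudocount, with 2.28 at a pseudocount of 0.1 and 0.80 at 5.

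The make-up of the effector transcripts is described here without a test. Bax was 1.03 ± 0.161 times the level of Bak1 in control and 1.95 ± 0.247 times in cKO, and 2.29 ± 0.226 times that of Bok in control and 5.24 ± 1.21 times in cKO (SD, n = 4). Of the sum of the 3 effector genes, Bax made up 37.5% to 45.1% in control and 54.4% to 63.1% in cKO, and Bok 17.1% to 19.7% and 9.24% to 13.4%. The sum itself was 219 TPM ± 8.3 in control and 254 TPM ± 13.3 in cKO (SD, n = 4), with no overlap between groups, and the difference in Bak1 plus Bok, -22.8 TPM, was smaller than that in Bax. The ratio of the 4 survival genes to Bak1 and Bok was 1.41 ± 0.0213 in control and 1.67 ± 0.232 in cKO, and with Bax added to the effectors it was 0.825 ± 0.0539 and 0.691 ± 0.0754 (SD, n = 4). Every cKO library was above every control library in the ratio without Bax, while the groups overlapped in the ratio with Bax, by cKO library 4 and control library 4.

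**Figure D4:**
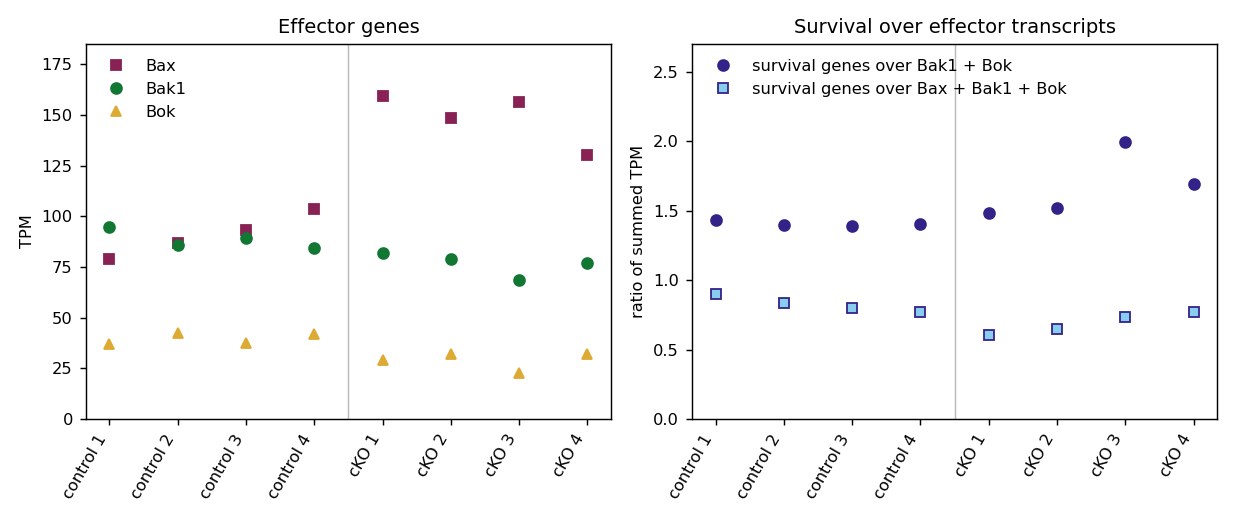
Left, TPM of the effector genes Bax, Bak1 and Bok in each library, where Bax is near Bak1 in control and above it in every cKO library. Right, the summed TPM of the 4 survival genes divided by that of Bak1 and Bok (circles) or of all 3 effector genes (squares), higher in cKO than in control by the first ratio in every library and lower on average by the second.

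Among 12 further family genes, 5 reached the level needed for the test and 7 did not (Bcl2a1a, Bcl2a1b, Bcl2a1d, Bcl2l10, Bcl2l14, Bcl2l15 and Hrk). Of the 5, 1 was called lower and 0 higher, with a median log2 change of -0.11. Over all tested rows the shares called were 4.23% lower and 2.16% higher. Bik (chr15:83526790-83544635, plus strand), which encodes a BH3-only protein of the endoplasmic reticulum, stood at 25.9, 28.7, 28.7 and 30.6 TPM in control libraries 1 to 4 and at 22.6, 22.9, 18.01 and 22.7 TPM in cKO libraries 1 to 4. All cKO libraries lay below all control libraries. Bik fell by 0.39 on the log2 scale (SE 0.0835, limma adjusted p = 0.0274), and the call was lost without cKO library 1 or control libraries 2, 3 or 4 (limma adjusted p 0.05396 to 0.0714), with the erythroid score as a covariate (limma adjusted p = 0.0592) and with no filter on low values (limma adjusted p = 0.0878). Bmf, whose BH3-only protein senses the cytoskeleton, had an estimate of 0.26 on the log2 scale (limma adjusted p = 0.168) and Bcl2l13, a family member of the mitochondrial membrane, of -0.12 (limma adjusted p = 0.254).

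Downstream of the family, 26 of 26 genes of mitochondrial release and caspase activation were tested, of which 2 were called higher and 0 lower, and the median log2 change was -0.06. Called or not, 7 of the 26 had an estimate above 0 and 19 below 0. Among all tested rows 6863 were above 0 and 8678 below. Of all tested rows 6.4% were called in either direction and 2.16% higher. By limma's unadjusted p under 0.05, 9 of 26 passed, against 23.7% of all rows. The groups did not overlap in 8 of 26, against 15.6% of all rows. Whether the list departs from the background was not tested. Apaf1 (chr10:90989311-91082743, minus strand), the scaffold of the apoptosome and itself a known p53 target, stood at 17.5, 16.2, 17.5 and 18.1 TPM in control libraries 1 to 4 and at 22.3, 22.5, 21.7 and 21.3 TPM in cKO libraries 1 to 4. The groups were apart, and Apaf1 rose by 0.32 (SE 0.0525, limma adjusted p = 0.00923), a call kept in all 19 alternatives. Casp6, an executioner caspase that cuts lamins, rose by 0.24 (limma adjusted p = 0.0268), from 37.2 TPM ± 1.11 to 44.1 TPM ± 2.3 (SD, n = 4). The predicted gene Gm40150 lies within it on the same strand. The call was lost without cKO library 1 or control libraries 1, 2 or 3 (limma adjusted p 0.0643 to 0.0718), with no filter on low values (limma adjusted p = 0.0526) and without the trend in limma's variance prior (limma adjusted p = 0.0503). Birc5, the inhibitor of apoptosis survivin that also serves in mitosis, had an estimate of -0.30 on the log2 scale (limma adjusted p = 0.0605) and passed in 1 of 19 alternatives, without cKO library 2.

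Of 22 genes for proteins that bind, modify or degrade BCL2 family proteins, 1 was called, lower, and the median log2 change was -0.03. This share was near the 4.23% of all tested rows called lower. This was Ywhah, a 14-3-3 protein of the kind that holds BAD in the cytosol, which stood at 312 TPM ± 8.42 in control and 273 TPM ± 13.9 in cKO (SD, n = 4, log2 change -0.19, limma adjusted p = 0.0448). It lost the call in 14 of 19 alternatives, among them every leave-one-out fit except that without cKO library 2 (limma adjusted p 0.0743 to 0.112). Foxo3, a transcription factor known to drive Bcl2l11, had an estimated change of 0.24 (limma adjusted p = 0.107), and Itpr2, a calcium channel that BCL2 proteins bind, of 0.21 (limma adjusted p = 0.0745).

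Around Bnip3, 12 of 13 mitophagy genes and 17 of 17 hypoxia response genes were tested, and limma called 0 of either list, with 2 and 6 members at an unadjusted p under 0.05. Over all tested rows these shares were 6.4% and 23.7%. Their median log2 changes were 0.04 and -0.10. Pink1, the kinase that marks damaged mitochondria, had the smallest p of the first list, with a log2 change of -0.23 (limma adjusted p = 0.0682), followed by Gabarapl1 (0.17, limma adjusted p = 0.155) and Rheb (-0.10, limma adjusted p = 0.397). In the hypoxia list, Ldha, the enzyme that makes lactate, was estimated at -0.24 on the log2 scale (limma adjusted p = 0.0756) and Slc2a1, the glucose carrier GLUT1, of -0.26 (limma adjusted p = 0.119). Ddit4, an inhibitor of mTORC1 that p53 is also known to induce, had one of 0.36 (limma adjusted p = 0.0829). Without control library 1 Ldha passed (limma adjusted p = 0.0423), as did Ddit4 without control library 4 (limma adjusted p = 0.0431) or with the erythroid score as a covariate (limma adjusted p = 0.0409), and Slc2a1 without cKO library 2 (limma adjusted p = 0.0388).

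**Figure D5:**
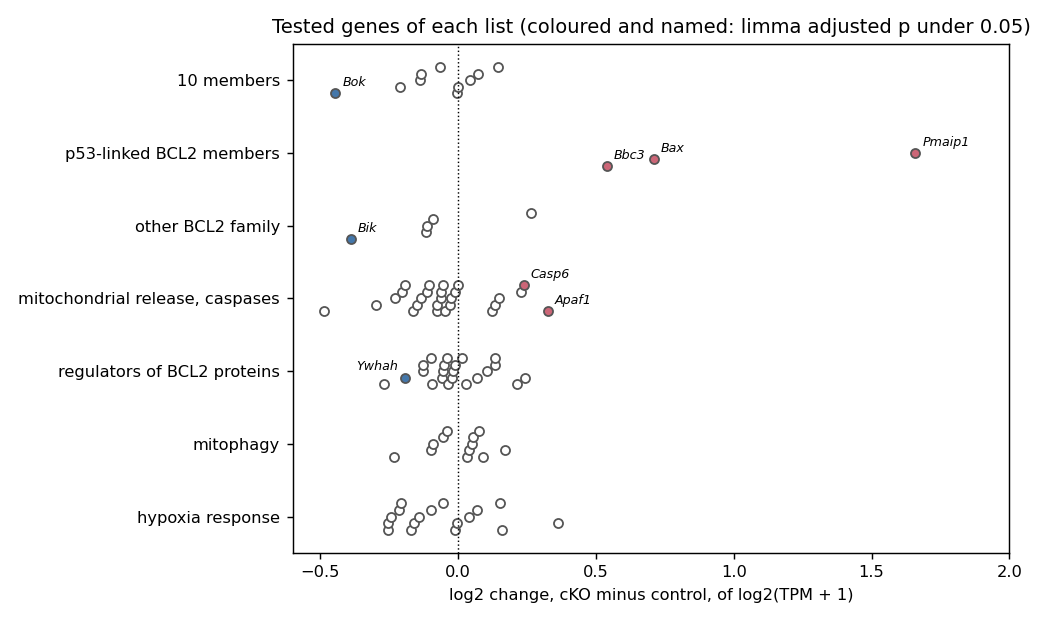
Log2 change, cKO minus control (horizontal axis), of every tested gene in the 10 members and in each list of related genes (rows, with points spread vertically only for legibility). Coloured and named points passed limma's test: Bok, Bik and Ywhah below 0, and Bbc3, Bax, Pmaip1, Casp6 and Apaf1 above 0.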

How the data were processed

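The authors deposited TPM values, a level per transcript length. The 52778 rows added up to the same total in all 8 columns. The submitters' processing notes name FastQC, Trim Galore 0.6.7, HISAT2 2.2.1, StringTie 2.2.1, featureCounts and DESeq2 and the build GRCm38. Which tool made the TPM values, and whether strand was used, is not given in the sources used here. TPM keeps no depth, so depth is unknown and the errors given are between libraries.

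Values were analysed as log2(TPM + 1), which understates changes of low genes, in R 4.3.3 with limma 3.58.1 (group as the only term, eBayes with trend, two-sided) over the 15541 rows that averaged 1 TPM or more. Exact permutation tests used the 70 assignments of 8 libraries. Sums and ratios of members received no test. On simulated data for 15541 genes with 200 changed, 87% of changes of 0.75 and 53% of changes of 0.4 (log2) were recovered, and 5.41% of calls were false. The simulation changed fewer genes than the 994 rows called here and drew its noise independently, so these rates need not hold for these data. Figures were drawn with matplotlib 3.10.9.

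The members, the lists and the rule for naming genes were chosen with earlier results of these data known. Named genes were the 10 members, Rps19bp1, the 3 p53-linked genes, and in each list the called genes (up to 6) or, with fewer than 3 called, the 3 with the smallest p. The alternatives were each library left out in turn, a replicate block, array weights, an erythroid covariate, eBayes without trend, other pseudocounts (0.1 or 5), no filter or one at 5 TPM, and 3 other scalings (quantile, median-ratio, or to a total that leaves out globin and mitochondrial genes).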

Additional observations from a re-analysis of the deposited data

Results flagged for a closer look

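Among 28 checks of a group of 4 libraries for 1 value far from the other 3, 2 gave such a value, where chance gives about 1 in 20. Bcl2l2 stood at 16.5 TPM in cKO library 4, and the other 3 cKO libraries lay between 21.9 and 22.2 TPM. The sum of the effector genes Bak1 and Bok was 91.5 TPM in cKO library 3, and the other 3 cKO libraries lay between 109 and 110.8 TPM.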

How the results depend on the processing

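Bok was lower in cKO in all 19 alternatives, from -0.50 to -0.34, and Bak1 in all 19, from -0.24 to -0.15. The number of members called was 1 as reported and 0 without a filter on low values, after quantile normalization, with eBayes without trend and with the erythroid covariate. Over the fits that left out 1 library it ranged from 0 to 1, likewise for members called lower. No member was called higher under any alternative. Over all rows, 994 calls (336 higher, 658 lower) became 347 (140 higher, 207 lower) without the filter, 609 with eBayes without trend (371 lower) and 530 with the erythroid covariate (223 higher, 307 lower). Calls of lower rows were 380 after quantile normalization, 419 after median-ratio scaling and 396 after rescaling to a total without globin and mitochondrial genes, where the share of calls that were higher was 50.2%, 47.8% and 49.5% against 33.8% as reported. Without 1 library, calls ranged from 388 to 936, with 153 to 339 higher and 228 to 597 lower. The cause was not tested.

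The labels do not say whether replicate numbers pair the libraries. Same-numbered cKO and control libraries had correlations of their deviations of -0.0107, 0.0674, 0.0576 and -0.0891. Libraries 2 and 3 of each group correlated best with their own number, and libraries 1 and 4 did not. Correlations this small cannot settle whether a number marks a shared litter or day. The replicate block gave 420 calls (179 higher, 241 lower) and left Bok as the 1 member called (limma adjusted p = 0.032). Among the other named genes it ended the calls of Bik (0.0563), Casp6 (0.0768) and Ywhah (0.0768).

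The sign turned for 3 members with estimates near 0. The estimate of Bcl2 was 0.020 after median-ratio scaling, 0.027 after rescaling and 0.055 with the erythroid covariate, and ranged from -0.080 to 0.050 when single libraries were left out. That of Bcl2l11 was -0.0037 with array weights and ranged from -0.060 to 0.042, and that of Bad from -0.048 to 0.11, when single libraries were left out.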
